A study of Mus musculus with 10 samples.

Results

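The 10 genes described here encode replacement histones and the chaperones that load one of them, and were chosen by symbol from the 24453 gene symbols of the deposited expression table. They are the linker histones H1foo and H1f0, the H2A variants H2afz, H2afv, H2afy and H2afj, the H3.3 genes H3f3a and H3f3b, and the chaperone genes Hira and Asf1a. Each was measured by RNA-seq in germinal vesicle (GV) oocytes, full-grown oocytes in meiotic prophase arrest, from 10 C57Bl/6J mice, with 16 denuded oocytes pooled per mouse and 1 library per pool. The mutant group held 4 mice of genotype Setdb1 f/-; Zp3-cre, which carry a floxed and a deleted allele of the H3K9 methyltransferase gene Setdb1 together with Cre driven by the Zp3 promoter, active in growing oocytes. The controls were 4 Setdb1 f/+; Zp3-cre mice, called Cre-carrying controls below, and 2 Setdb1 f/- mice, which share the deleted allele with the mutants but have no Cre, called f/- controls below. The floxed allele of the mutants was thus open to Cre once oocyte growth had begun. Oocytes of all 3 groups were collected in medium with 2.5 mM milrinone, a phosphodiesterase inhibitor that holds meiotic arrest. The labels state no age for the mice.

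Replacement histones are made outside S phase from polyadenylated messages of genes that lie apart from the replication-type histone clusters, so they can be deposited in a cell that does not replicate its DNA, as a growing oocyte does not. Linker histone H1 binds where DNA enters and leaves the nucleosome, and oocytes carry their own form, encoded by H1foo. HIRA, together with UBN1 or UBN2 and CABIN1, deposits H3.3 independently of replication, and ASF1A hands H3-H4 dimers to it. H2A.Z is exchanged into nucleosomes by the SRCAP and EP400 complexes and removed by INO80 and ANP32E.

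Setdb1 itself, the targeted gene, was at 4.06, 2.55, 3.32 and 1.31 RPKM (a read count divided by the length of the transcript and the size of the library) in the mutants. It was at 28.6, 25.7, 25.1 and 52.5 RPKM in the Cre-carrying controls and at 19.9 and 26.3 RPKM in the f/- controls. The means were 2.81 ± 1.17 RPKM (SD, n = 4) in mutants and 29.7 ± 11.5 RPKM (SD, n = 6) in controls, a ratio of 9.47%, and a two-sided exact permutation test over 210 splits gave p = 0.0095, the smallest these samples allow. The summed level of 14 oocyte markers was 6296 to 6476 RPKM in mutants, 6231 to 7854 RPKM in Cre-carrying controls and 7041 to 8273 RPKM in f/- controls. Of these 14, 2 fell and 1 rose against all controls, where 2.22% of all tested genes were called lower and 3.10% higher. The log2 differences were -0.81 for Kit (adjusted p = 0.00084 in limma), -0.52 for Dazl (adjusted p = 0.025 in limma) and 0.42 for Nobox (adjusted p = 0.023 in limma). In all, 10 of the 14 differences were below 0 and 4 above, with a median of -0.19, beside 0.03 for all tested genes. Of 10 granulosa and cumulus markers the sums were 78.0 to 111, 90.6 to 103 and 75.9 to 77.2 RPKM, of 6 theca and stroma markers at most 3.91 RPKM in any library, and of 7 blood, immune and endothelial markers 21.9 to 34.7, 29.1 to 39.6 and 42.2 to 46.0 RPKM, in the same order. Most of the granulosa and cumulus sum was Serpine2, at 49.3 to 82.8 RPKM over all libraries, with Nr5a2 and Cyp19a1 next. Amh, Foxl2 and Has2 were at most 0.732 RPKM in any library. Most of the blood, immune and endothelial sum was Pecam1 (7.14 to 27.1 RPKM) and C1qb (10.8 to 19.9 RPKM). Cyp17a1, Hba-a1 and Hbb-bs were at 0 in all libraries. Libraries of the Cre-carrying controls correlated with each other at r of 0.972 to 0.987 over 11338 tested genes, mutant libraries at 0.886 to 0.955 and the 2 f/- libraries at 0.878, so the groups differ in spread. The part of these markers in the differences below was not tested. The unequal spread was addressed only by the alternative with library weights. The spacing of low values put the libraries at 45.5e6 to 72.5e6 reads.

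The paralogous pairs among these genes can be told apart by reads because their coding sequences differ at many silent positions, which the first 60 coding bases of each gene (GENCODE M21, sense strand, A of the start codon as base 1) show. Capitals mark the bases at which the members of a pair differ.

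H3f3a: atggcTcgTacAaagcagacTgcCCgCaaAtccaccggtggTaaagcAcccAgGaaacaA
H3f3b: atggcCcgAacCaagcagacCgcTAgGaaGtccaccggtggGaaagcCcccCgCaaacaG
H2afz: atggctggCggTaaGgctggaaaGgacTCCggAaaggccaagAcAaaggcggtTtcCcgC
H2afv: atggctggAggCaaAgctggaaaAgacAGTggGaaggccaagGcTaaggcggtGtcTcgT

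Both pairs differ at 13 of these 60 bases. Over the whole coding sequence without its stop codon, H3f3a and H3f3b differed at 95 of 408 bases and at 83 of 136 codons, and 0 of these codons changed the encoded residue, so both genes encode the same H3.3 protein. H2afz and H2afv differed at 80 of 384 bases and at 73 of 128 codons, of which 3 changed the residue. The H2afz sequence compared here comes from another transcript than that of the row used for its levels, which has 315 coding bases. H2afz has 2 rows, and the second was at 0.935 of the row used in every library. The longest run shared by a pair was 23 bases for the H3.3 genes and 14 bases for the H2A.Z genes. Copies elsewhere in the genome are the harder case. Of the stretches of 50 bases in the transcript of H2afz, 71.6% (545 of 761) also occur in transcripts of 6 genes at other places, 4 of them pseudogenes, with 504 of them in Tmcc1. The same share was 16.4% for H3f3a (40 genes, 38 of them pseudogenes), 10.6% for H3f3b, 2.2% for H2afj and 0 for the other 6 genes. Genes whose exons overlap those of a member at the same place were left out of these shares. Those of Hira and Asf1a are named below. Others on the opposite strand were Gm17275 for H3f3a (638 bases shared), Gm47071 for H2afy (265), Gm49544 for H1f0 (163) and Gm44364 for H2afj (141). None of these is in the expression table, so their part in the levels was not tested. The labels do not say how reads with several matches were counted, so the levels of H2afz and, to a lesser degree, H3f3a and H3f3b are uncertain.

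In control oocytes these genes spanned nearly the whole range of expression, and H1foo stood far above the rest. H1foo averaged 765 ± 119 RPKM over the 6 controls, above 99.9% of the tested genes, and made up 82.2% to 85.6% of the summed RPKM of the 10 genes in every library, mutants included. The levels per length then fell in the order Asf1a (81.0 ± 13.3 RPKM), H3f3b (28.7 ± 2.12 RPKM), H1f0 (16.1 ± 2.83 RPKM) and H3f3a (8.08 ± 0.95 RPKM), and the ranges of neighbours down to H3f3a did not overlap. Below it came H2afj (5.60 ± 1.69 RPKM), H2afy (3.89 ± 1.88 RPKM), Hira (2.81 ± 0.44 RPKM), H2afv (1.55 ± 0.93 RPKM) and H2afz (0.952 ± 0.36 RPKM), and each neighbour from H3f3a downward overlapped the next. In the mutants the first 5 places were held by the same genes in the same order, and Hira, eighth in the controls, was last.

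**Figure D1:**
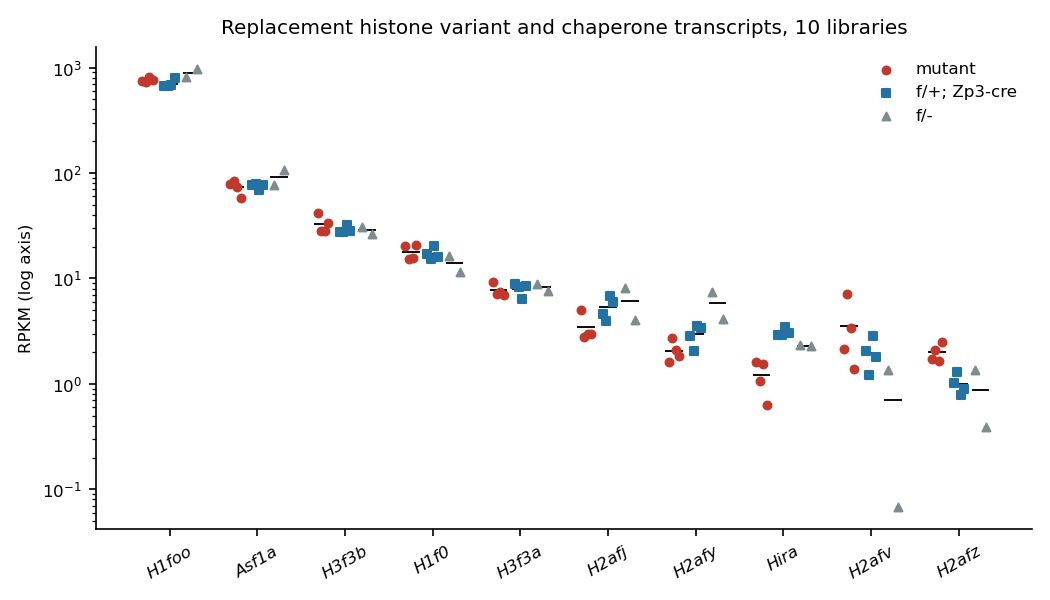
Level of each gene in each of the 10 libraries, in RPKM on a log axis, with the mean of each group as a bar; circles are mutants, squares Cre-carrying (f/+; Zp3-cre) controls and triangles f/- controls. H1foo lies near 765 RPKM in the controls, and the mutant points of Hira lie below, and those of H2afz above, all points of both control groups.

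Neither linker histone message passed the threshold. H1foo, on chr6:115944938-115950236 (GRCm38, plus strand), was at 751, 729, 809 and 761 RPKM in the mutants, at 668, 666, 684 and 792 RPKM in the Cre-carrying controls and at 811 and 969 RPKM in the f/- controls. The mutant range lay inside that of the pooled controls, and the means were 762 ± 33.8 (SD, n = 4) and 765 ± 119 RPKM (SD, n = 6). The difference in log2(RPKM + 0.5), the scale of all differences below, was 0.01 (95% interval -0.22 to 0.23, adjusted p = 0.98 in limma). H1f0, on chr15:79028450-79030504 (plus strand), encodes the linker histone of non-dividing somatic cells. Its mutant values were 20.4, 15.3, 15.5 and 20.8 RPKM, against 17.1, 15.4, 20.35 and 15.9 RPKM in Cre-carrying and 16.2 and 11.6 RPKM in f/- controls. Mutant libraries 1 and 4 lay just above the highest control and the other 2 among the controls, and the difference was 0.16 (-0.20 to 0.52, adjusted p = 0.65 in limma). H1foo made up 97.1% to 98.8% of the summed RPKM of the 2 linker histone genes in the 10 libraries.

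The H2A variants were low and their values were split in sign, with none past the threshold against all controls. H2afz, on chr3:137864487-137866922 (plus strand), encodes H2A.Z.1, a variant found at promoters. It was at 1.73, 2.10, 1.65 and 2.51 RPKM in the mutants, at 1.01, 1.29, 0.778 and 0.899 RPKM in Cre-carrying controls and at 1.35 and 0.385 RPKM in f/- controls. All 4 mutant values lay above all 6 control values, with means of 2.00 ± 0.39 and 0.952 ± 0.36 RPKM. Of the 10 genes H2afz was the 1 with mutants wholly above controls, while 4.62% of all tested genes had this arrangement. The difference was 0.81 (0.19 to 1.43), and its adjusted p of 0.13 in limma (0.065 to 0.25 over the alternatives) did not pass the threshold of 0.05. These values rest on about 23 to 119 reads per library, and most of the transcript has copies elsewhere.

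H2afv, on chr11:6427229-6444443 (minus strand), encodes H2A.Z.2. Its mutant values were scattered, at 2.12, 7.10, 3.40 and 1.39 RPKM, against 2.06, 1.21, 2.82 and 1.78 RPKM in Cre-carrying controls. The f/- controls were at 1.34 and 0.0673 RPKM, the second of which corresponds to about 8 reads. Mutants and controls overlapped, and the difference was 0.95 (-0.10 to 1.99, adjusted p = 0.31 in limma). The sum of both H2A.Z genes was 3.85, 9.20, 5.05 and 3.89 RPKM in mutants, 3.07, 2.50, 3.60 and 2.68 RPKM in Cre-carrying controls and 2.69 and 0.453 RPKM in f/- controls. The lowest mutant sum thus lay just above the highest control sum. The sum includes H2afz, whose mutant values by themselves lay above all controls, as in 4.62% of all tested genes. It is therefore not a separate observation.

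H2afy encodes macroH2A1, whose large non-histone domain marks it off from other H2A proteins, and is known on silent chromatin. It lies on chr13:56073619-56136361 (minus strand). Its values were 1.62, 2.72, 2.09 and 1.84 RPKM in mutants, 2.84, 2.07, 3.50 and 3.39 RPKM in Cre-carrying controls and 7.48 and 4.08 RPKM in f/- controls. Mutants overlapped the Cre-carrying controls and lay below both f/- controls. How many of all tested genes lay below both was not counted. The difference was -0.70 against all controls (-1.36 to -0.04, adjusted p = 0.22 in limma) and -1.25 against the f/- controls alone (-1.997 to -0.51, adjusted p = 0.057 in limma). The 4 RefSeq rows of H2afy had nearly the same values (0.922 to 1.006 of the row used), so its splice forms were not told apart. H2afj, on chr6:136808244-136810074 (plus strand), encodes an H2A variant that differs from replication-type H2A mainly at its C-terminus. It was at 5.02, 2.78, 2.998 and 2.99 RPKM in mutants, 4.59, 3.98, 6.88 and 5.97 RPKM in Cre-carrying controls and 8.14 and 4.05 RPKM in f/- controls. One mutant library lay among the controls and the other 3 lay below all of them. The difference was -0.62 (-1.17 to -0.06, adjusted p = 0.20 in limma).

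No difference of either H3.3 gene passed the threshold. H3f3a, on chr1:180800832-180813943 (minus strand), was at 9.16, 7.07, 7.49 and 7.01 RPKM in mutants, 8.79, 8.28, 6.42 and 8.50 RPKM in Cre-carrying controls and 8.94 and 7.54 RPKM in f/- controls. The groups overlapped, and the difference was -0.07 (-0.44 to 0.30, adjusted p = 0.87 in limma). H3f3b, on chr11:116021912-116027962 (minus strand), was at 42.0, 28.4, 28.2 and 33.2 RPKM in mutants, 27.5, 27.7, 32.0 and 28.1 RPKM in Cre-carrying controls and 30.6 and 26.3 RPKM in f/- controls. The groups overlapped here too, although 1 mutant library reached above all controls, and the difference was 0.18 (-0.10 to 0.46, adjusted p = 0.49 in limma). H3f3b made up 79.0% to 82.6% of the summed H3.3 RPKM in mutants, 75.8% to 83.3% in Cre-carrying controls and 77.4% and 77.7% in f/- controls. The main source of H3.3 message per length was therefore the same gene in every library.

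Hira was the member that passed the threshold. It encodes the WD-repeat subunit that gives the HIRA complex its name and lies on chr16:18877037-18970309 (GRCm38, plus strand). It was at 1.61, 1.06, 1.55 and 0.636 RPKM in the mutants, at 2.88, 2.93, 3.43 and 3.03 RPKM in the Cre-carrying controls and at 2.31 and 2.31 RPKM in the f/- controls. All 4 mutant values lay below all 6 control values, and the f/- controls lay between the other groups. Of the 10 genes Hira was the 1 with mutants wholly below controls, while 3.56% of all tested genes had this arrangement and 8.18% had no overlap in either direction. The means were 1.21 ± 0.46 RPKM (SD, n = 4) in mutants and 2.81 ± 0.44 RPKM (SD, n = 6) in controls, which puts the mutants at 43.1% of the controls. Hira fell by 0.98 ± 0.27 (SE; 95% interval -1.56 to -0.41) on the log2 scale, with an adjusted p of 0.048 in limma. In a bulk pool, fewer molecules per oocyte in all oocytes and loss of the message from some oocytes cannot be told apart. The call is at the edge of the threshold. It held in 8 of 21 alternatives, with adjusted p from 0.015 to 0.12 in limma and a log2 difference from -1.21 to -0.59 over all of them. Left out in turn, mutant libraries 1 to 4 gave adjusted p of 0.057, 0.089, 0.061 and 0.113, and Cre-carrying libraries 1 to 4 gave 0.108, 0.107, 0.098 and 0.115 in limma. The values of Hira rest on about 157 to 873 reads per library. A predicted gene on the same strand, Gm28539, shares 2778 exon bases with Hira, and reads from these bases cannot be assigned to 1 of them.

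Asf1a, the chaperone that passes H3-H4 to HIRA and to CAF-1, lies on chr10:53596757-53609225 (plus strand). It was at 78.8, 83.6, 73.8 and 58.2 RPKM in mutants, 77.4, 79.0, 69.2 and 76.4 RPKM in Cre-carrying controls and 76.7 and 107 RPKM in f/- controls. The groups overlapped, with the lowest value in a mutant and the highest in an f/- control, and the difference was -0.14 (-0.42 to 0.15, adjusted p = 0.63 in limma). Its exons overlap those of Mcm9 on the opposite strand by 1515 bases, and the library kit does not mark strand. Mcm9 was listed at 3.61 to 7.20 RPKM, and its part in the level of Asf1a was not tested. The paralogue Asf1b was lower, and Asf1a made up 71.3% to 85.8% of the summed RPKM of both in the 10 libraries.

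**Figure D2:**
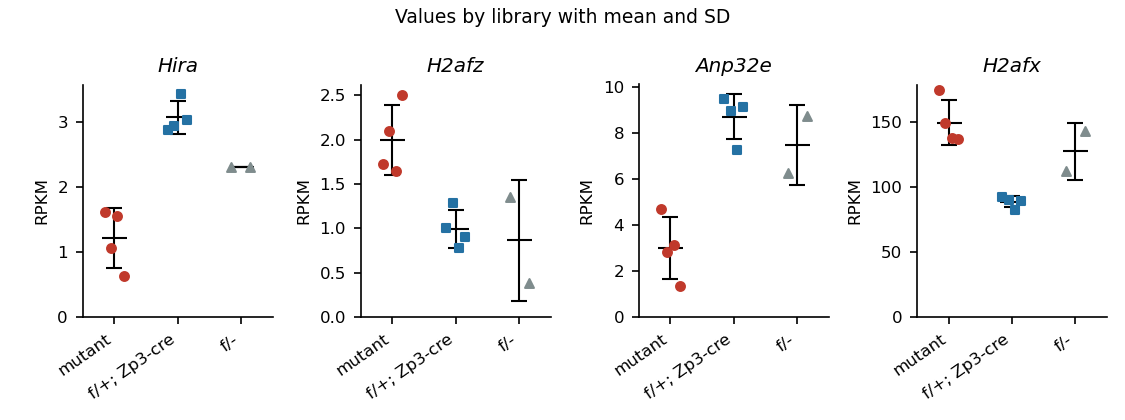
RPKM by library (linear axes from 0) of Hira, H2afz and 2 genes of the histone handling lists, Anp32e and H2afx, with the mean and SD of each group. The 4 mutant points of Hira (0.636 to 1.61 RPKM) and Anp32e (1.35 to 4.69 RPKM) lie below all controls, those of H2afz lie above all controls, and H2afx overlaps with the f/- controls.

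Counted together against all controls, 1 of the 10 genes fell, 0 rose and 9 did not pass the threshold. Among all tested genes 2.22% were called lower, 3.10% higher and 5.33% in either direction, and a single call among 10 genes is not read as particular to them. At an unadjusted p under 0.05 there were 4 of the 10, and 2242 of 11338 tested genes. The median log2 difference of the 10 was -0.03, beside 0.03 for all tested genes, with 5 values above 0 and 5 below. Against the Cre-carrying controls alone, Hira was again the 1 gene called, lower by a log2 difference of -1.10 (-1.70 to -0.49, adjusted p = 0.041 in limma), where 2.13% of tested genes were called lower, 2.76% higher and 4.89% in either direction. This call held in 10 of 20 alternatives, and without single libraries the adjusted p in limma was at most 0.13, the highest value being that without Cre-carrying library 4. Against the f/- controls alone 0 of the 10 passed in limma and 4 had an unadjusted p under 0.05, as had 2434 of the 11338 tested genes, where 3.25% of tested genes were called higher, 1.59% lower and 4.84% in either direction. Hira differed from the f/- controls by -0.76 (-1.50 to -0.02, adjusted p = 0.22 in limma), so its interval overlapped that of the comparison with the Cre-carrying controls. These comparisons share the mutant libraries, and the last rests on 2 control libraries. H2afv differed by 1.77 (0.51 to 3.03, adjusted p = 0.10 in limma) and H2afz by 0.95 (0.12 to 1.78, adjusted p = 0.17 in limma). Without f/- library 1, which leaves 1 f/- library, H2afv differed by 2.62 and H2afz by 1.48. H2afy differed by -1.65 without f/- library 2, which also leaves 1 f/- library. It passed without mutant library 2 (-1.37, adjusted p = 0.042 in limma).

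**Figure D3:**
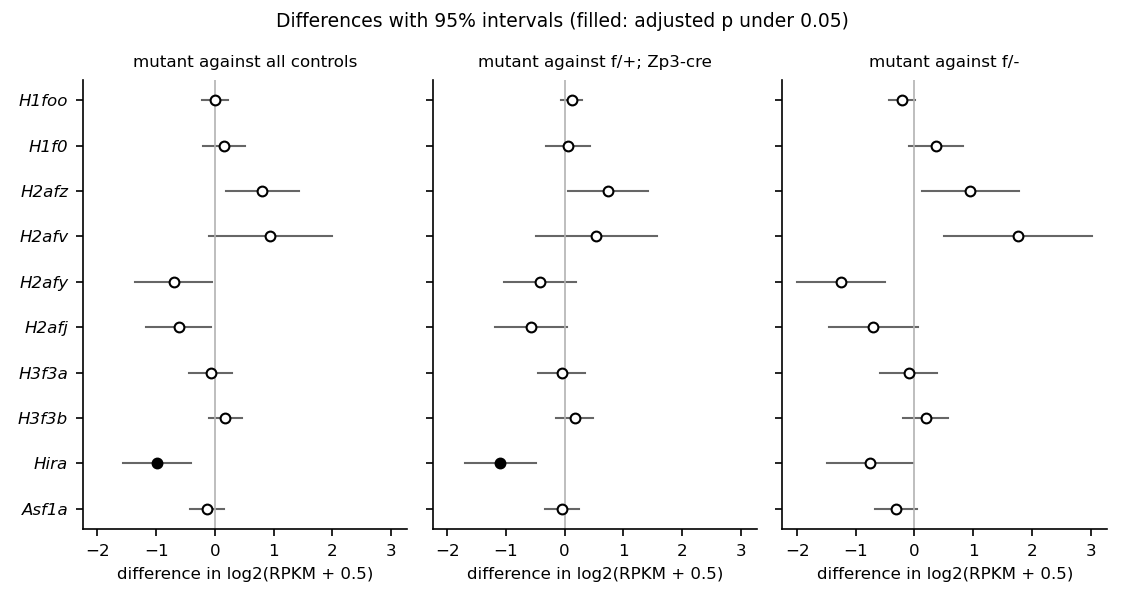
Difference of each gene in log2(RPKM + 0.5), mutant minus control, with its 95% interval, against all controls, the Cre-carrying controls (f/+; Zp3-cre) and the f/- controls; filled points have an adjusted p under 0.05. Hira is filled in the first 2 panels, at -0.98 and -1.10, and no gene is filled in the third.

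The control genotypes differ from each other in Cre and in the second Setdb1 allele, and between them 0 of the 10 genes passed in limma, with 2 at an unadjusted p under 0.05, as had 1584 of the 11338 tested genes. Of all tested genes 0.0441% were called lower, 0.0265% higher and 0.0706% in either direction. The Cre-carrying controls had less H1foo than the f/- controls, at means of 703 ± 60.2 (SD, n = 4) and 890.2 ± 112 RPKM (SD, n = 2), but the difference of -0.34 (-0.56 to -0.12) had an adjusted p of 0.18 in limma. Without f/- library 1, which leaves 1 f/- library, it was -0.47. H2afy differed by -0.83 (-1.58 to -0.09, adjusted p = 0.30 in limma) and Hira by 0.34 (-0.40 to 1.08, adjusted p = 0.69 in limma).

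Genes that handle the same histones were taken as 3 lists of 53 genes, 48 of them tested. Against all controls 1 rose, 1 fell and 46 did not pass, with a median log2 difference of -0.05, where 3.10% of all tested genes were called higher and 2.22% lower. A share of calls this close to that of all genes is not read as particular to the lists. Of the 10 other histone variants 5 could be tested (median log2 difference 0.35), 3 were at 0 in all libraries (H2afb1, H2afb3 and Hils1) and 1, H3f3c, is not a row of the table. H2afx, whose product H2A.X is phosphorylated at DNA breaks, was the 1 that passed, and with Cenpa, the centromeric H3 variant, it had the highest level of this list. It was at 174, 149, 138 and 137 RPKM in mutants, 92.3, 90.3, 82.7 and 89.5 RPKM in Cre-carrying controls and 112 and 143 RPKM in f/- controls. Mutants and controls as a whole overlapped, because the mutants lay above the Cre-carrying controls but among the f/- controls. The share of all tested genes separated from a single control genotype was not counted. H2afx rose by 0.57 against all controls (adjusted p = 0.034 in limma) and by 0.75 against Cre-carrying controls (adjusted p = 0.0017 in limma), and against f/- controls the difference was 0.23 (-0.06 to 0.52, adjusted p = 0.34 in limma). The first call was lost in 11 of 21 alternatives, among them the removal of any 1 mutant library (adjusted p of 0.103, 0.077, 0.058 and 0.058 in limma) or any 1 Cre-carrying library (0.074, 0.076, 0.062 and 0.078 in limma). The call of H2afx against Cre-carrying controls held in all 20 alternatives. Between the control genotypes, H2afx was lower in the Cre-carrying controls by a log2 difference of -0.51 (-0.80 to -0.23, adjusted p = 0.14 in limma). Cenpa was at 16.5 ± 2.63 RPKM in mutants and 17.4 ± 2.05 RPKM in controls.

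Of the 22 tested genes that deposit H3.3 or H3-H4, 0 passed in limma against all controls, beside 5.33% of all tested genes. At an unadjusted p under 0.05 there were 4 of the 22, and 2242 of 11338 tested genes. The median log2 difference was -0.06. The most abundant were Rbbp7, a histone-binding subunit of several complexes, at 173 ± 14.6 RPKM in mutants and 178 ± 11.3 RPKM in controls, and Nasp, which buffers free H3-H4, at 129 ± 7.93 and 139.6 ± 16.3 RPKM. The partners of HIRA and the proteins of the other H3.3 pathway were looked at after their values had been seen. Ubn1 differed by -0.07 (-0.32 to 0.19, adjusted p = 0.81 in limma), Ubn2 by -0.44 (-0.83 to -0.05, adjusted p = 0.19 in limma) and Cabin1 by -0.12 (-0.45 to 0.21, adjusted p = 0.71 in limma). Atrx and Daxx, which together deposit H3.3 at repeats and heterochromatin, differed by 0.42 (adjusted p = 0.10 in limma) and 0.61 (adjusted p = 0.18 in limma). Atrx was at 88.5, 104, 103 and 96.4 RPKM in mutants, 70.6, 76.7, 86.2 and 83.3 RPKM in Cre-carrying controls and 77.7 and 50.2 RPKM in f/- controls. Every mutant thus lay above every control, as in 4.62% of all tested genes. Against the f/- controls alone Atrx passed at 0.64 (adjusted p = 0.043 in limma), and without f/- library 2, which leaves 1 f/- library, it was 0.33. That call was lost in 15 of 20 alternatives, without any 1 of the 4 mutant libraries (adjusted p of 0.055, 0.068, 0.085 and 0.062 in limma) and any 1 of the 4 Cre-carrying libraries (0.066, 0.074, 0.054 and 0.073 in limma) among them.

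Of the 21 tested genes for H2A-H2B and H2A.Z chaperones and exchange, 1 fell and 0 rose against all controls, beside 2.22% of all tested genes lower and 3.10% higher, and the median log2 difference was -0.05. The gene was Anp32e, the chaperone that removes H2A.Z from nucleosomes. It was at 4.69, 2.85, 3.15 and 1.35 RPKM in mutants, 9.51, 8.97, 7.29 and 9.13 RPKM in Cre-carrying controls and 6.26 and 8.74 RPKM in f/- controls. All mutants lay below all controls, as in 3.56% of all tested genes, and the mutant mean was 36.2% of the control mean. Anp32e fell by 1.41 on the log2 scale (-1.98 to -0.84, adjusted p = 0.0070 in limma), and this call held in all 21 alternatives run. Against the Cre-carrying controls it fell by 1.48 (adjusted p = 0.013 in limma), and without their libraries 1, 2 or 4 the adjusted p was 0.053, 0.053 and 0.052 in limma. Against the f/- controls the difference was -1.26 (adjusted p = 0.064 in limma), and without mutant library 1 it was -1.48 with an adjusted p of 0.036 in limma. The genes of this list with the highest mean over all 10 libraries were Npm2, the oocyte nucleoplasmin that stores H2A-H2B, at 292 ± 46.8 RPKM in mutants and 336 ± 65.3 RPKM in controls, and Ruvbl2, an ATPase of the exchange complexes, at 84.2 ± 13.8 and 59.8 ± 12.6 RPKM (adjusted p = 0.085 in limma).

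**Figure D4:**
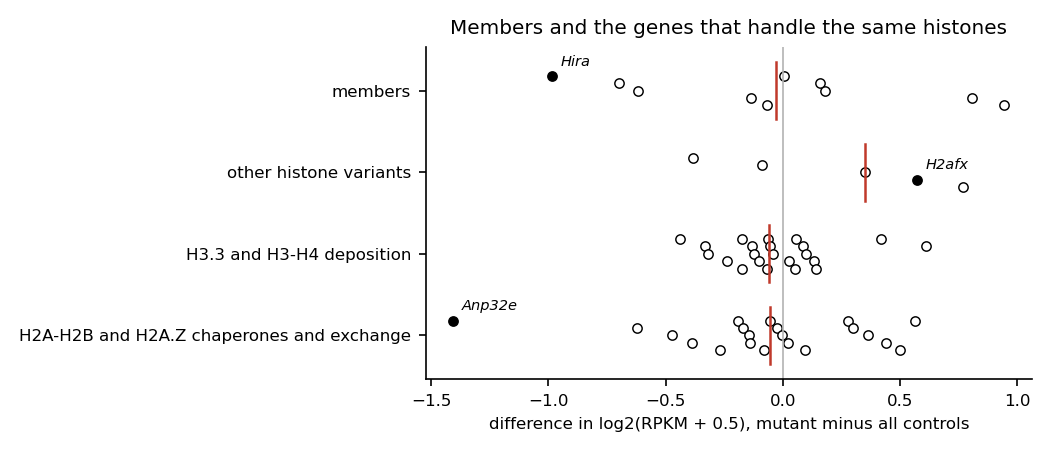
Difference in log2(RPKM + 0.5), mutant minus all controls, of each tested gene among the 10 members and the 3 lists of other histone variants, H3.3 and H3-H4 deposition, and H2A-H2B and H2A.Z handling; vertical bars are medians and filled points have an adjusted p under 0.05. Hira (-0.98), H2afx (0.57) and Anp32e (-1.41) are the filled points, and the medians are -0.03 for the members, 0.35 for the 5 other variants, -0.06 for H3.3 and H3-H4 deposition and -0.05 for H2A-H2B and H2A.Z handling.

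Among the 6166 tested genes that averaged 5 RPKM or more, the 3 whose log2 values followed those of Hira most closely over the 10 libraries were Arhgap11a (r = 0.96), March7 (r = 0.96) and Gdap1 (r = 0.96). These are Pearson correlations over libraries that share their groups, so a gene with lower values in mutants than in controls scores high by that alone. With the group means removed, r was 0.85, 0.75 and 0.87. The genes were picked by an r that includes these deviations, so these values are not an independent check. Arhgap11a averaged 24.9 ± 4.53 RPKM in mutants and 35.5 ± 2.89 RPKM in controls, March7 40.4 ± 2.39 and 52.1 ± 3.92 RPKM, and Gdap1 36.2 ± 4.43 and 50.7 ± 7.07 RPKM.

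The promoters of these genes ranged from CpG-poor to CpG-rich. In the 250 bases before the RefSeq start (GRCm38.p6) the median over 32851 promoters was 6 CpG, and 9 of the 10 genes lay above it. Those of H1foo and Hira are shown because they are the gene with the highest level and the gene that passed the threshold, the first on chr6:115944681-115944930 and the second on chr16:18876500-18876749, both on the plus strand. For some genes the RefSeq start differs from the GENCODE span given above. The Hira window ends at 18876749 and the GENCODE span starts at 18877037, and the window of H3f3b lies inside its GENCODE span. A window is therefore not necessarily the promoter of the transcript measured. Capitals mark CpG dinucleotides.

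H1foo: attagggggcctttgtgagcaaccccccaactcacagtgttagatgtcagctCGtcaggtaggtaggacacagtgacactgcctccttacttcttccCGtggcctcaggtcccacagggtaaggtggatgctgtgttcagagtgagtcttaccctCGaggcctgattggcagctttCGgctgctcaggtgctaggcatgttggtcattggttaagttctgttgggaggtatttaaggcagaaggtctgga
Hira: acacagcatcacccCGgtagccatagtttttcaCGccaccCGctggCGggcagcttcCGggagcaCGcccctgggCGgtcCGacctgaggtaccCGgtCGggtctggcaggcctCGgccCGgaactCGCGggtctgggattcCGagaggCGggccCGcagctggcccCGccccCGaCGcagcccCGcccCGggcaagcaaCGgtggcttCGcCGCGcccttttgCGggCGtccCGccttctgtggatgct

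H1foo had 4 CpG in this window, fewer than the other members, and H2afj came next with 9, at percentile 59.7. The other 8 genes had 19 to 35. H1foo was at percentile 37.8 of all promoters, and Hira had 29, at percentile 93.2. The highest count was the 35 CpG of H3f3a. The letters CCAAT, read on both strands, were in the windows of 7 of the 10 genes, all but H1f0, H2afy and Hira, and in 33.8% of all promoters of this length. TATAAA was found in that of H3f3b and in 12.4% of all promoters. CACCTG, the letters of an E-box, was in those of H1foo and Asf1a and in 17.2% of all promoters. The 3 motifs do not overlap in their letters, and a match describes the sequence and no more.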

How the data were processed

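RNA-seq libraries of 10 pools of GV oocytes were used, 4 mutant, 4 f/+; Zp3-cre and 2 f/-, each from another mouse. Per the labels' protocols, total RNA was amplified as SPIA cDNA (NuGen Ovation) and made into libraries with a DNA kit that does not mark strand. The values are RPKM as deposited by the authors, in 1 table of 34768 RefSeq rows with 0 columns that match no sample. Per the submitters' processing notes, bcl2fastq 1.8.3, STAR and mm10 were used. For the counting tool, the sources used here give no name.

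The row with the highest mean stood for a gene. Tests used limma 3.58.1 in R 4.3.3 with a trend on log2(RPKM + 0.5), which understates changes of low genes, for the 11338 genes that averaged 0.5 RPKM or more, and Benjamini-Hochberg adjustment over them. All adjusted p-values are limma's. The comparison with all controls had 2 levels, and the others came from a model with 3 groups. The script was tested on simulated data. Named genes are the 10 members, Setdb1, for each list those past the threshold and the 2 with the highest mean, and the 3 genes most like Hira. Outside this rule, Asf1b, Ubn1, Ubn2, Cabin1, Atrx and Daxx and all markers named singly were chosen after their values were seen. Members and lists were chosen with earlier results of these data known.

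Read totals came from the spacing of low values, of which 75.9% to 79.4% lay within 0.1 of a whole read, with transcript lengths for 97.7% of rows. Totals and reads are therefore approximate, and amplified reads are not independent molecules. The 45 pairs of libraries held 0 with identical values. Coordinates are from GENCODE M21 (GRCm38, the build mm10), and promoters from RefSeq, where all 10 genes matched. The alternatives covered the pseudocount, filter, scaling, library weights, trend, rows, a replicate block and each library left out.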

Additional observations from a re-analysis of the deposited data

Results flagged for a closer look

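Of 28 groups of 4 libraries examined, 4 held a library far from the other 3, by the ratio of its gap to the group's whole range, and chance gives about 1 in 20. H1foo was at 792 RPKM in Cre-carrying control (f/+; Zp3-cre) library 4 and at 666 to 684 RPKM in the other 3. Setdb1 was at 52.5 RPKM in that library and at 25.1 to 28.6 RPKM in the other 3. H3f3b was at 32.0 RPKM in Cre-carrying control library 3 and at 27.5 to 28.1 RPKM in the others. H2afj was at 5.02 RPKM in mutant library 1 and at 2.78 to 2.998 RPKM in the others.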

How the results depend on the processing

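The count of members called against all controls, 1 as reported, was 0 with a pseudocount of 0.1, with no filter, with a filter at 2 RPKM, with rows summed and with the replicate block, and 0 to 1 with single libraries left out. Against f/+; Zp3-cre it was 0 with no filter, with rows summed and with the replicate block, and 0 to 1 with single libraries left out. Against f/- it was 1 with median centring, quantile normalization, no trend and rows summed, and 0 to 1 with single mutant or Cre-carrying libraries left out. Between the controls it was 0 with single mutant or Cre-carrying libraries left out. Leaving out an f/- library leaves 1 in that group, so no such count is given for these 2 comparisons. The gene lost in the first 2 comparisons was Hira, the gene gained against f/- with all libraries in was H2afy, and the cause was not tested. Deviations from the group means gave r of -0.05 to 0.03 in 8 same-numbered pairs and -0.08 to 0.08 in the other pairs. Of 8 mutant and f/+; Zp3-cre libraries, 4 were closest to their own number. The deviations of the 2 f/- libraries mirror each other by construction. These values cannot decide whether replicate numbers pair the samples. The block gave 236 higher and 140 lower genes, against 352 and 252.

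Signs turned, with no call on either side, in 9 differences. H1foo against all controls was -0.053 with median centring and -0.030 to 0.078 with single libraries left out. H1f0 against f/+; Zp3-cre was -0.015 with centring, -0.043 with quantiles and -0.016 to 0.138 with libraries left out, and Asf1a against it was -0.113 to 0.060. H3f3a against f/- was -0.214 to 0.017. Between the controls, H2afz was -0.122 with quantiles and -0.319 to 0.744 with libraries left out, H2afj -0.589 to 0.337 and Anp32e -0.0083 to 0.441. H3f3a there was 0.028 with array weights, 0.040 with the replicate block and -0.161 to 0.070 with libraries left out, and H3f3b was -0.018 with array weights and -0.087 to 0.125 with libraries left out. H2afz has no value with a filter at 2 RPKM.

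Over all genes, calls against all controls ranged from 236 to 445 higher and 119 to 356 lower with single libraries left out, and from 236 to 807 higher (most with array weights, with 581 lower) in the other alternatives. The share of calls that were higher, 58.3%, was 47.2% with median centring and 48.9% with quantile normalization. Setdb1 kept its direction and call in all 12 alternatives, at -3.39 to -2.69. Low read numbers limit H2afz and H2afv, and the 2 f/- libraries limit every comparison with that group.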
